A study of Mus musculus with 3 samples.

Results

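Digestive enzyme transcripts were followed through islet preparations of the mouse pancreas, both in the acinar cells that make them and in every other barcode of the same libraries. The set was a list of 30 genes chosen by symbol, and 29 of them were among the 31053 genes counted. Amy2b did not match a feature by symbol and was not analysed here. The 29 genes fall into 12 serine protease genes, 6 genes for lipid enzymes and their cofactor, 2 carboxypeptidase genes, 2 amylase genes, 1 ribonuclease gene and 6 genes for granule proteins and a trypsin inhibitor.

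Islets came from 3 non-diabetic female NOD-SCID mice aged 10 to 11 weeks, which carry the severe combined immunodeficiency mutation on the NOD background and lack mature T and B cells. There was 1 group and no treatment, so the comparisons lie between cell classes within these mice. Each mouse gave 1 droplet library, in which transcripts were counted near their 3′ ends as unique molecular identifiers (UMIs), a count of molecules that does not grow with transcript length. The islets were freed by collagenase perfusion, purified on a density gradient and dissociated with a trypsin substitute, a preparation in which some acinar tissue can remain.

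Acinar cells form the exocrine bulk of the pancreas and pack digestive enzymes, mostly as inactive precursors, into zymogen granules for release into the duct. A small number of genes supply most of their messenger RNA. When such cells break during dissociation, their RNA can enter the suspension and be captured in droplets with other cells. Transcription of these genes depends on the PTF1 complex, which joins the factors Ptf1a and Rbpjl and binds a paired motif, an E-box followed by a TC-box.

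The upstream sequences of 2 enzyme genes are shown because Ctrb1 gave the most enzyme UMIs and Cela1 was the 1 enzyme gene that passed the per-cell test in delta-like cells. They are the 250 bases before the RefSeq start site in GRCm38.p6, on the minus strand at chr8:111691011-111691260 for Ctrb1 and at chr15:100687921-100688170 for Cela1. Capitals mark matches, searched on both strands, to the letters CACCTG and CAGCTG (E-boxes) and TTCCCA (the core of a TC-box).
Ctrb1: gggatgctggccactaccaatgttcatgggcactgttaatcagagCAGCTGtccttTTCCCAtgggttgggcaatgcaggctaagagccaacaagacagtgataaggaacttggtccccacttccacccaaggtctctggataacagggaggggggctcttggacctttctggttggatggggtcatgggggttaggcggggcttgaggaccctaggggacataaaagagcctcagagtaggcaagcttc
Cela1: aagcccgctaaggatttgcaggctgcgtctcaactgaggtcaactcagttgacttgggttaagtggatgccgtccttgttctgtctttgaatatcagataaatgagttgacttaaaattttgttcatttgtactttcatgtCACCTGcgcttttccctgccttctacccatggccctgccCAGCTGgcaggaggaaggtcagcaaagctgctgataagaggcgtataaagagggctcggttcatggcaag

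In Ctrb1 the match to CAGCTG began 205 bases before the start and a match to TTCCCA began 194 bases before it. In Cela1, CACCTG began 109 bases and CAGCTG 70 bases before the start, and TTCCCA had no match in this window. RefSeq promoter entries of 300 bases, 250 before and 50 after the start, were matched for 22 of the enzyme genes. CACCTG was present in 11 of the 22 (50%) and in 20.2% of all 32851 entries, CAGCTG in 7 of the 22 (31.8%) and in 16.3% of all, and TTCCCA in 13 of the 22 (59.1%) and in 25.6% of all. An E-box of either kind together with TTCCCA, at any distance, was present in 7 of the 22 (31.8%) and in 8.64% of all. These matches describe letters and not binding sites.

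The libraries of mice 1, 2 and 3 held 6005, 4444 and 5713 barcodes with 32389170, 48076507 and 57849496 UMIs. Barcodes were kept where 500 or more genes were found, mitochondrial UMIs did not exceed 15% and no doublet was called, which left 1090, 2609 and 3474. Classes came from clusters of marker genes that included none of the enzyme genes. The markers did include Reg1, Pdia2 and Serpini2, which followed the summed enzyme genes over classes and mice (Pearson's r of 0.997, 0.940 and 0.915). The classes were therefore not fully independent of enzyme level. Mice 1 and 2 shared 148 barcode sequences, mice 1 and 3 shared 9 and mice 2 and 3 shared 13, of which 14, 2 and 4 were kept in both libraries of the pair. The p-values rest on 3 mice and on a spread that the fits pool across genes, so they do not measure each gene's own spread over the mice. They also leave out the error of forming classes.

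Enzyme genes supplied 5.80%, 8.23% and 0.807% of all UMIs in mice 1, 2 and 3. Acinar-like cells were 1.72%, 8.91% and 0.455% of the barcodes, and held 68.5%, 52.0% and 55.9% of the enzyme UMIs. Most cells of this class lay in 2 shallow clusters with more beta-cell than acinar marker UMIs, described below. Barcodes with under 500 genes held another 21.4%, 24.1% and 21.6%, and kept cells of other classes held 5.73%, 19.9% and 17.4%. Mouse 3 thus had the fewest acinar-like cells and the lowest enzyme share, and mouse 2 the most and the highest.

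The acinar-like class had 525 cells, with 103, 396 and 26 from the 3 mice, and enzyme UMIs were 68.2%, 53.8% and 64.5% of its UMIs (62.2% ± 7.47, SD, n = 3). It was made of 3 clusters that were not alike. A deep cluster of 111 cells (27, 66 and 18) had a median of 17975 UMIs and an enzyme share of 77.1%, 77.2% and 67.6% (73.9% ± 5.53, SD, n = 3). Its 12 acinar markers, none of them an enzyme gene of the list, were all detected in every mouse and summed to 2.72%, 3.41% and 3.87% of UMIs. Reg1, a secreted acinar protein, stood at 31700 ± 5777 CPM (UMIs scaled to a common library total) in that cluster (SD, n = 3).

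The other 414 cells of the class lay in 2 shallow clusters and had an enzyme share of 17.5%, 13.1% and 8.28%. Their median cell held 174.5, 297.5 and 25.5 enzyme UMIs. That was nearer to the 73, 250 and 17 of kept cells that are not acinar-like than to the 11372, 10968.5 and 14346.5 of the deep cluster. Their acinar markers summed to 0.528%, 0.543% and 0.331% of UMIs, and in mouse 3, with 8 cells, 6 of the 12 were at 0. Beta-cell markers gave 16.04%, 28.3% and 4.22% of their UMIs, against 1.08%, 1.18% and 0.394% in the deep cluster. Reg1 supplied most of the acinar marker sums in both, and not every marker was higher in the deep cluster. Rbpjl was higher in the shallow clusters, at 145, 136 and 48.0 CPM against 31.1, 39.2 and 33.9 in the deep one. The marker Nr5a2 was too, at 10.6, 17.2 and 192 CPM against 6.84, 10.3 and 10.4. In mouse 3 these values rest on a few UMIs, since its 8 shallow cells had a mean of 2603 UMIs. CPM are also shares of all UMIs, of which enzyme genes took 77.1%, 77.2% and 67.6% in the deep cluster. They do not give numbers per cell, as mean depth was 3708, 4224 and 2603 UMIs in the shallow clusters and 59527, 36748 and 21317 in the deep one. The 111 deep cells held 96.2%, 91.1% and 99.3% of the class's enzyme UMIs. A single barcode of mouse 1 with 659768 UMIs held 42.2% of that mouse's acinar-like enzyme UMIs, and the highest in mice 2 and 3 held 15.9% and 12.1%.

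Serine proteases made up most of the enzyme UMIs of acinar-like cells, with 67.1%, 70.3% and 68.2% in mice 1, 2 and 3 (68.5% ± 1.62, SD, n = 3). Shares from here on are percents of the summed enzyme UMIs unless stated otherwise. Ctrb1, a chymotrypsinogen, led in every mouse with 16.4%, 19.1% and 22.2%. Prss2, a trypsinogen, was second by the mean over mice (9.17% ± 0.140, SD, n = 3) with 9.23%, 9.28% and 9.01%, which was the steadiest share of the leading genes. Cela2a, a pancreatic elastase, had 9.92%, 9.97% and 6.23%, and was lowest in mouse 3. Its gene model overlaps that of Ctrc on the minus strand of chromosome 4 (Cela2a at chr4:141814962-141826160, Ctrc at chr4:141814962-141846359), so the counts of both are uncertain where their exons overlap.

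The trypsinogens Try5 and Try4 differed in which mouse was high. Try5 had 7.30%, 7.86% and 10.8%, and Try4 had 7.99%, 8.70% and 5.60%, so that Try4 exceeded Try5 in mice 1 and 2 and fell short of it in mouse 3. Both lie at the trypsinogen cluster on chromosome 6 in GENCODE M21 (GRCm38), Try4 at chr6:41302269-41305532 and Try5 at chr6:41311233-41316841, and the last 300 bases of their transcripts were 96.3% identical. How reads shared by such copies were counted is not given in the sources used here, so the split between Try4 and Try5 is uncertain. The other trypsinogen genes were minor, with Try10 at 0.112%, 0.107% and 0.151% and Prss3 at 0.0498%, 0.0311% and 0.0514%.

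The remaining serine proteases had middle shares. Cela1, another elastase gene, had 6.10%, 5.35% and 5.29%, and Cela3b, a related gene, had 4.38%, 4.56% and 4.24%. The chymotrypsin relatives Ctrl and Ctrc had means of 2.60% ± 0.344 and 2.197% ± 0.323 (SD, n = 3). Klk1, a tissue kallikrein, had 0.396% ± 0.114.

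Lipid enzymes and their cofactor summed to 15.3%, 14.1% and 17.0%. Clps, which encodes colipase, the cofactor that anchors pancreatic lipase to fat droplets, had 4.51%, 4.36% and 9.37%, and was highest in mouse 3. Pnlip, the lipase itself, ran the other way with 7.38%, 6.35% and 4.16%. Pnliprp1, a lipase-related protein, had 1.17%, 1.40% and 1.99%, and Cel, the bile-salt-activated lipase, had 1.28%, 1.02% and 0.709%. Pla2g1b, a phospholipase, and Pnliprp2 had means of 0.647% ± 0.0491 and 0.268% ± 0.0439 (SD, n = 3).

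The carboxypeptidases Cpa1 and Cpb1, which trim amino acids from peptide ends, had 3.19% ± 0.449 and 2.89% ± 0.549 (SD, n = 3). Amy1, a starch-splitting amylase, had 3.79%, 2.68% and 2.49%, while Amy2a5 had 0.0762%, 0.0764% and 0.0307%. Amy2a5 lies on chromosome 3 among copies whose last 300 transcript bases were 95.7% identical to it, so reads that match several copies could be missing from its count. The copies Amy2a4, Amy2a3 and Amy2a2 had between 9 and 155 UMIs per library, and Amy2a5 had 1447, 3121 and 132. No order between the amylase genes is drawn from these values.

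Rnase1, the pancreatic ribonuclease, had 2.15% ± 0.0879 (SD, n = 3). Of the granule proteins, Sycn (syncollin) had 2.004% ± 0.110 and Zg16 had 1.84% ± 0.0869, both nearly equal in the 3 mice. Spink1, the trypsin inhibitor of the granule, had 0.336%, 0.414% and 0.509%. Gp2, Dmbt1 and Cuzd1 had 0.191% ± 0.0398, 0.177% ± 0.0993 and 0.0904% ± 0.0106. The smallest shares were therefore those of Prss3, Amy2a5, Cuzd1, Try10 and Dmbt1, and the 5 largest members of each mouse together held 50.9%, 54.9% and 57.6%.

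**Figure D1:**
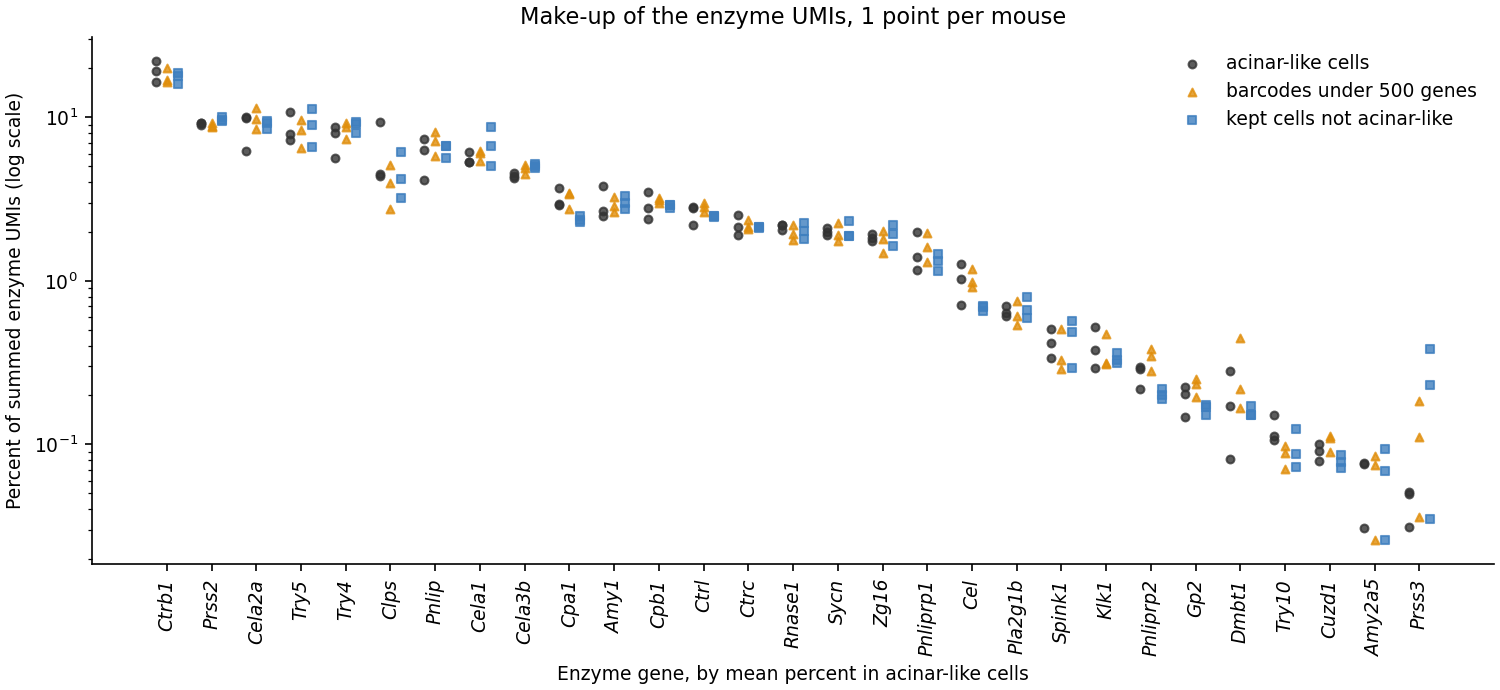
Percent of the summed enzyme UMIs (y, log scale) for each of 29 enzyme genes (x, ordered by the mean in acinar-like cells), with 1 point per mouse for acinar-like cells, barcodes with under 500 genes and kept cells that are not acinar-like. The 3 groups run down the same slope from Ctrb1 near 19.2% to Cuzd1 near 0.0904%, and Prss3 is the member whose groups lie furthest apart.

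Single acinar cells of the deep cluster varied around this make-up, and some genes varied much more than others. Among the 19 genes with a median share of at least 1%, Cela1 had the smallest ratio of the 95th to the 5th percentile, 1.75, with shares of 4.14% to 7.23% over 111 cells. Ctrb1 ran from 13.2% to 26.8%. Try5 ran from 3.67% to 16.3%, Cel from 0.339% to 2.18% and Clps from 0.935% to 11.1%, the greatest ratio of the 19 at 11.9. These ranges include counting error and pool cells of 3 mice. One deep cell of mouse 3 had 43.5% of its enzyme UMIs from Try5 at an enzyme share of 19.7%, while the next highest Try5 share was 18.3%.

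Outside the acinar-like class, every named class carried enzyme UMIs, and the median number per cell differed far less between classes than depth did. Over the 10 other classes that held 10 or more cells in each mouse, the median per cell ran from 60 to 94 UMIs in mouse 1, from 184 to 291 in mouse 2 and from 14 to 23 in mouse 3. The highest class was thus 1.57, 1.58 and 1.64 times the lowest by the median, and 2.44, 4.98 and 3.46 times by the mean. Fibroblast-like cells, left out of this range with 6, 17 and 47 cells, had medians of 31, 251 and 14. Mean depth over the same classes differed by 8.84, 14.3 and 8.82 times. Barcodes with under 500 genes had medians of 56, 277 and 17 enzyme UMIs, although their mean depth was 0.0331, 0.0416 and 0.0320 times that of beta-like cells.

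The share of UMIs, by contrast, went with depth. Beta-like cells, the deepest class, had enzyme shares of 0.173%, 0.495% and 0.0564% of UMIs with 82.6, 261 and 19.2 enzyme UMIs per cell. Endothelial-like cells had 1.37%, 3.55% and 0.447% of UMIs, with 141, 251 and 19.6 per cell. The beta-like share was thus 0.126, 0.139 and 0.126 times the endothelial-like share, and the median number per cell was 0.835, 1.16 and 1.07 times the endothelial-like one. The delta-like share lay between, with 0.811%, 2.71% and 0.222% of UMIs. Delta-like cells had 121, 293 and 23.7 enzyme UMIs per cell, more than both of those classes in mice 2 and 3.

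**Figure D2:**
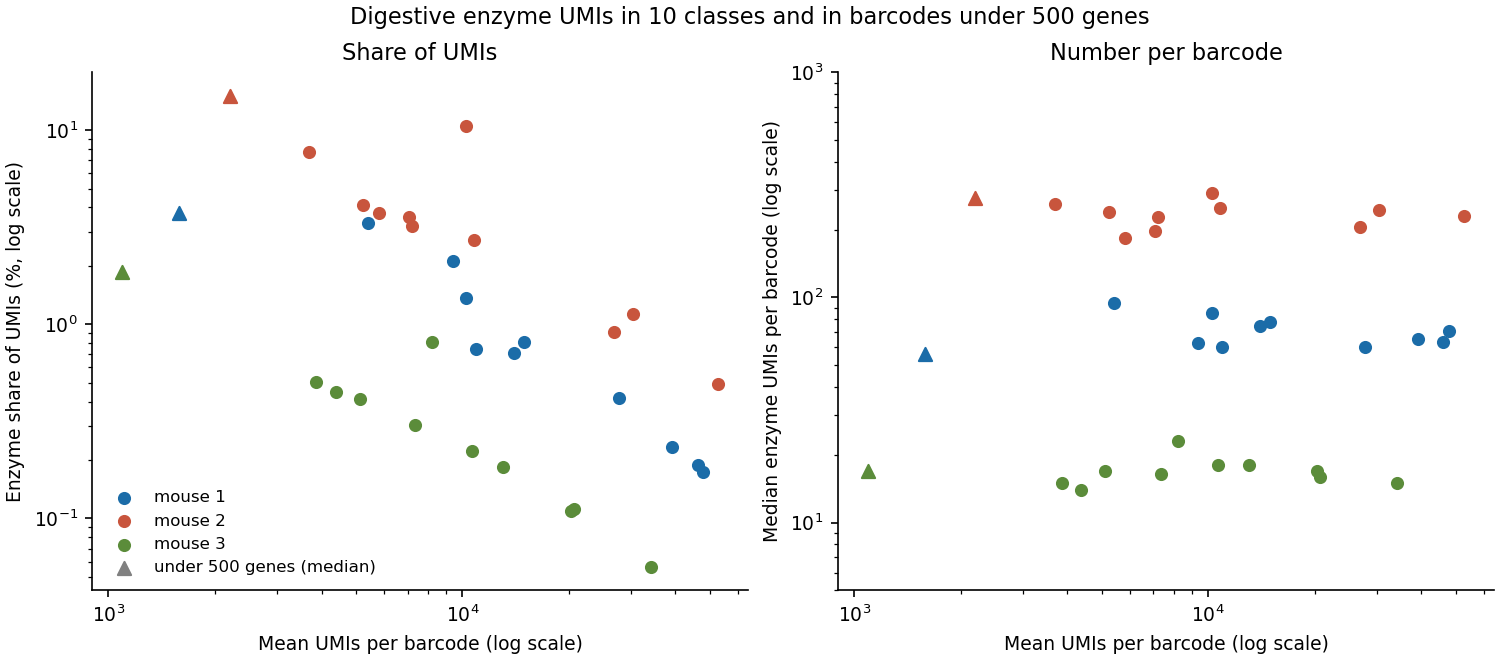
Enzyme share of UMIs (left, log scale) and median enzyme UMIs per barcode (right, log scale) against the mean UMIs per barcode (log scale) for 10 classes other than acinar-like, coloured by mouse. Triangles are barcodes with under 500 genes, drawn at their median share on the left. The share slopes down with depth in each mouse, and the number per barcode lies flat at about 60 to 94 in mouse 1, 184 to 291 in mouse 2 and 14 to 23 in mouse 3.

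Within a class, the relation of depth to enzyme number differed by class and mouse. In beta-like cells, Spearman's rho between a cell's other UMIs and its enzyme UMIs was 0.238, 0.0268 and -0.0305 over 117, 324 and 315 cells. In alpha-like cells it was 0.220, 0.321 and 0.0358. It was highest in dendritic-like cells of mice 1 and 2 (0.832 over 12 cells and 0.619 over 55) and in macrophage-like cells of mouse 1 (0.630 over 21), while in mouse 3 these classes had -0.245 and -0.00905. In barcodes with under 500 genes it was 0.612 in mouse 1, 0.104 in mouse 2 and -0.0715 in mouse 3. Cells of 1 library share its RNA pool, so these values are descriptions.

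Some means per cell rested on a few barcodes. Pericyte-like cells of mouse 1 had a mean of 198 against a median of 63, and the 1 highest of 15 cells held 57.9% of their enzyme UMIs. Dendritic-like cells of mouse 3 had a mean of 66.6 against a median of 23, with 66.5% in the 6 highest of 111 cells. Cells left unnamed, 326, 784 and 466 of them, had medians of 74, 264.5 and 16, which lie within the range of the named classes.

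Whether enzyme genes differed between endocrine and other cells was tested on UMIs summed per mouse and class. The 3 endocrine classes (delta-like, beta-like and alpha-like) were averaged and set against the average of the macrophage-like and endothelial-like classes, with edgeR's quasi-likelihood test, the mouse as a block and Benjamini-Hochberg adjustment over 12547 genes. As shares of the transcriptome (TMM scaling), 18 of the 29 enzyme genes were lower in endocrine classes at a false discovery rate of 0.05, 0 were higher and 11 did not pass. Among all genes tested, 26% were lower and 34.2% higher. The median log2 difference was -1.06 for the enzyme genes and 0.16 for all genes. The count rested on the mice used, with 2 lower without mouse 1 and 2 without mouse 3, and without the block for the mouse 0 passed.

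The 4 genes with the greatest differences among those that passed were of 3 families. Amy2a5 was lower by a log2 difference of -1.45 (SE 0.41, edgeR adjusted p = 0.00408). Cel was at 0.00206%, 0.00605% and 0.000822% of UMIs in endocrine classes of the 3 mice and at 0.0113%, 0.0266% and 0.00292% in endothelial-like and macrophage-like cells, a log2 difference of -1.18 (SE 0.43, edgeR adjusted p = 0.0364). Pnliprp2 differed by -1.17 (SE 0.39, edgeR adjusted p = 0.0228). Try4 was at 0.0264%, 0.0902% and 0.00916% against 0.115%, 0.365% and 0.0315%, a log2 difference of -1.15 (SE 0.30, edgeR adjusted p = 0.00635). In each mouse the endocrine value was the lower one for Cel and Try4.

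Counted per cell, no difference was detected. With the number of cells as the library size, 0 of 29 enzyme genes passed in either direction and 0 had an unadjusted p under 0.05, while 79.8% of all genes passed. The median log2 difference was 0.01 for the enzyme genes and 1.27 for all genes. Try4 had 8.92, 27.3 and 1.78 UMIs per endocrine cell and 12.01, 26.02 and 1.68 per endothelial-like or macrophage-like cell, a log2 difference of -0.08 (SE 0.17). Summed over the enzyme genes, endocrine cells had 0.802, 1.10 and 1.11 times the number per endothelial-like or macrophage-like cell (1.004 ± 0.175, SD, n = 3). Their depth was 3.23, 4.25 and 3.65 times as great. DESeq2 was run on the shares and not per cell. It used its own size factors in place of TMM, and called 27 of 29 lower.

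Secreted acinar proteins outside the list were lower in endocrine classes as well, while acinar transcription factors and secretory machinery were mixed in direction. Of 15 further genes for secreted acinar proteins, such as Reg1 and Tff2, 9 were tested, and 6 were lower as shares of the transcriptome, 0 higher and 3 did not pass, with a median log2 difference of -1.14. Per cell, 0 of the 9 were lower and the median was -0.03. Of 8 acinar transcription factors, 6 were tested, and 2 were higher and 0 lower as shares. The 2 higher were Xbp1 and Bhlha15, a regulator of secretory cells, which differed by 2.26 (SE 0.57, edgeR adjusted p = 0.00101). Rbpjl, a part of the PTF1 complex, had a difference of -1.27 (SE 0.67, edgeR adjusted p = 0.104) and did not pass. Of 15 genes for secretory machinery and receptors, 12 were tested, with 5 higher and 5 lower. The 5 lower were Gatm, Aqp12, Erp27, Pdia2 and Vamp8, and the 5 higher were Stxbp2, Tmed6, Rab3d, Chrm3 and Itpr3.

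Duct-like cells were compared with the same 2 classes because acinar and duct cells adjoin in the gland. As shares of the transcriptome, 0 of 29 enzyme genes passed (0 at an unadjusted p under 0.05 with edgeR, and 0 with DESeq2), against 43.7% of all genes in either direction. The direction turned with the mice used, since 22 were lower without mouse 2, while 3 were higher without mouse 1 and 1 was higher without mouse 3. Per cell, all 29 were higher at a false discovery rate of 0.05, against 67.2% of all genes higher, with medians of 1.0003 and 1.21 on the log2 scale. Without mouse 2 that count was 0. Summed over the enzyme genes, duct-like cells had 100, 1077 and 23.9 UMIs per cell in mice 1, 2 and 3. Endothelial-like and macrophage-like cells had 123, 244 and 20.4. The greatest differences were those of Try10 (1.84, SE 0.37, edgeR adjusted p = 2.13e-06), Gp2, a granule membrane protein (1.62, SE 0.33, edgeR adjusted p = 2.7e-06), Klk1 (1.62, SE 0.29, edgeR adjusted p = 2.07e-07) and Try5 (1.58, SE 0.39, edgeR adjusted p = 0.00099). In that fit Sycn had the smallest difference, 0.61 (SE 0.25).

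The duct-like values of mouse 2 came from a subset of cells. The class had 100, 238 and 140 cells with 100, 1077 and 23.9 enzyme UMIs per cell, but medians of 75, 291 and 18. The medians of mice 1 and 3 lay within the range of the other classes, and that of mouse 2 was the highest of them, above the 264.5 of unnamed cells and the 260.5 of Schwann-like cells. It joined a deep cluster of 230 cells and a shallow cluster of 248. In mouse 2, 51 of 167 shallow cells had over 30% enzyme UMIs, a split chosen after its values were seen, and these held 84.3% of that cluster's enzyme UMIs. In mice 1 and 3 no shallow duct-like cell passed 30%. The 116 others of mouse 2 had 284 enzyme UMIs per cell.

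Enzyme make-up differed in these cells as well. Try5 was 15.4% of enzyme UMIs in the 51 cells and 11.1% in the 116, against 7.86% in acinar-like cells of the same mouse. In the deep duct cluster of mouse 2 a single barcode with 75282 UMIs had 33.3% enzyme UMIs, of which Try5 made up 34.8% and Ctrb1 35.8%. Without it the other 70 cells had 309 enzyme UMIs per cell, with Try5 at 10.8% and Ctrb1 at 17.5%. Duct markers were 3.63%, 3.53% and 3.87% of UMIs in the deep cluster and 1.67%, 1.10% and 1.89% in the shallow one, where acinar markers reached 0.887% in mouse 2 against 0.136% and 0.0775% in mice 1 and 3. The part of acinar markers in this result was not tested. With the deep duct cluster alone, 23 of 29 enzyme genes were lower than in endothelial-like and macrophage-like cells as shares.

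The make-up of enzyme UMIs in cells of other classes correlated with that of the acinar-like cells of the same mouse. Over the 29 genes, Pearson's r of the log10 shares ran from 0.775 to 0.996 across 30 pairs of class and mouse, and Spearman's rho from 0.785 to 0.992. The lowest of them were the 15 pericyte-like cells of mouse 1. For all kept cells that are not acinar-like together, r was 0.965, 0.995 and 0.969, and for barcodes with under 500 genes it was 0.992, 0.995 and 0.972. Between mice 1 and 2, 1 and 3, and 2 and 3, acinar-like cells correlated at 0.991, 0.965 and 0.979. Kept cells that are not acinar-like correlated at 0.958, 0.989 and 0.962 between the same pairs of mice. With barcodes with under 500 genes of their own mouse they correlated at 0.987, 0.990 and 0.988 in mice 1, 2 and 3. A high r was thus not particular to acinar-like cells of the same mouse. These are correlations across genes, which are not independent replicates.

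In barcodes with under 500 genes, Ctrb1 had 16.4%, 16.8% and 20.04%, Prss2 9.25%, 8.71% and 8.87% and Cela2a 9.80%, 11.4% and 8.52%. In kept cells that are not acinar-like, Ctrb1 had 15.98%, 17.9% and 18.7%, Prss2 9.59%, 10.1% and 9.45% and Cela2a 9.53%, 9.17% and 8.50%. Relative to acinar-like cells, 27 of 29 genes were within 1.5-fold on average over the mice in barcodes with under 500 genes, and 28 of 29 in other kept cells. The same test on sums, with the enzyme total as library size, called 0 of 29 genes for either group, and 0 had an unadjusted p under 0.05 (DESeq2 called 0 and 1). Of all 10999 genes in that fit, 0.5% passed for barcodes with under 500 genes and 99.3% for other kept cells, since genes outside the enzyme list take a greater part there. The standard errors of the enzyme genes ran from 1.07 to 1.29 on the log2 scale, because this fit shares its spread with all other genes. For Prss2 in other kept cells the SE was 1.07, while its log2 ratios in the 3 mice had an SD of 0.0341. In the same cells Prss3 differed by 1.79 (SE 1.29) and did not pass. The count of 0 therefore does not show that the make-up was alike, even for differences of several fold.

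A few genes nonetheless leaned the same way in 3 of 3 mice. In other kept cells, Cel was at 0.690%, 0.651% and 0.701% against 1.28%, 1.02% and 0.709% in acinar-like cells, and Cpa1 at 2.30%, 2.35% and 2.48% against 3.71%, 2.95% and 2.91%. In all, 6 genes were lower in 3 of 3 mice, the others being Pnliprp2, Cuzd1, Pnliprp1 and Ctrb1, and 4 were higher, namely Prss3, Try4, Cela3b and Prss2. Clps differed by mouse, with 6.11%, 3.20% and 4.16% in other kept cells against 4.51%, 4.36% and 9.37% in acinar-like cells. The high Clps share of mouse 3's 26 acinar-like cells was thus not found in the rest of its library.

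Prss3 was the outermost gene, with a log2 ratio of 1.76 ± 1.42 (SD, n = 3) in other kept cells over acinar-like cells. One pericyte-like barcode of mouse 1 held 274 of the 409 Prss3 UMIs of that mouse's other kept cells, and Prss3 made up 15.9% of its enzyme UMIs. Without this barcode the log2 ratio was 1.23 ± 1.003, with values of 1.35, 0.17 and 2.17. Counts were low, with 276 UMIs in mouse 2 and 187 in mouse 3.

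Set against barcodes with under 500 genes in place of acinar-like cells, the other kept cells differed by transcript length. Pnliprp2 (log2 ratio -0.73 ± 0.26), Dmbt1 (-0.69 ± 0.64), Cel (-0.59 ± 0.24), Gp2 (-0.46 ± 0.26), Cpa1 (-0.42 ± 0.14), Cuzd1 (-0.39 ± 0.07) and Pnliprp1 (-0.30 ± 0.12; SD, n = 3 for each) were lower in 3 of 3 mice, as were Ctrl, Pnlip, Cela2a and Cpb1 by less (-0.11 to -0.18), and the longest coding transcripts of the first 7 measure 1572 to 6272 bases. Genes higher in 3 of 3 mice were Clps, Pla2g1b, Spink1, Zg16, Prss2, Rnase1 and Amy1, of which all but Amy1 (1985 bases) have transcripts of 557 to 992 bases. Spearman's rho between length and the mean ratio was -0.72 over 29 genes, and -0.72, -0.61 and -0.62 in the single mice. Cpb1, with 2718 bases, differed little (-0.11 ± 0.07), and Amy2a5, with 3715 bases, not in 1 direction (0.01 ± 0.31). Genes share their libraries here, and depth per barcode differs between the groups, so the relation is a description.

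**Figure D3:**
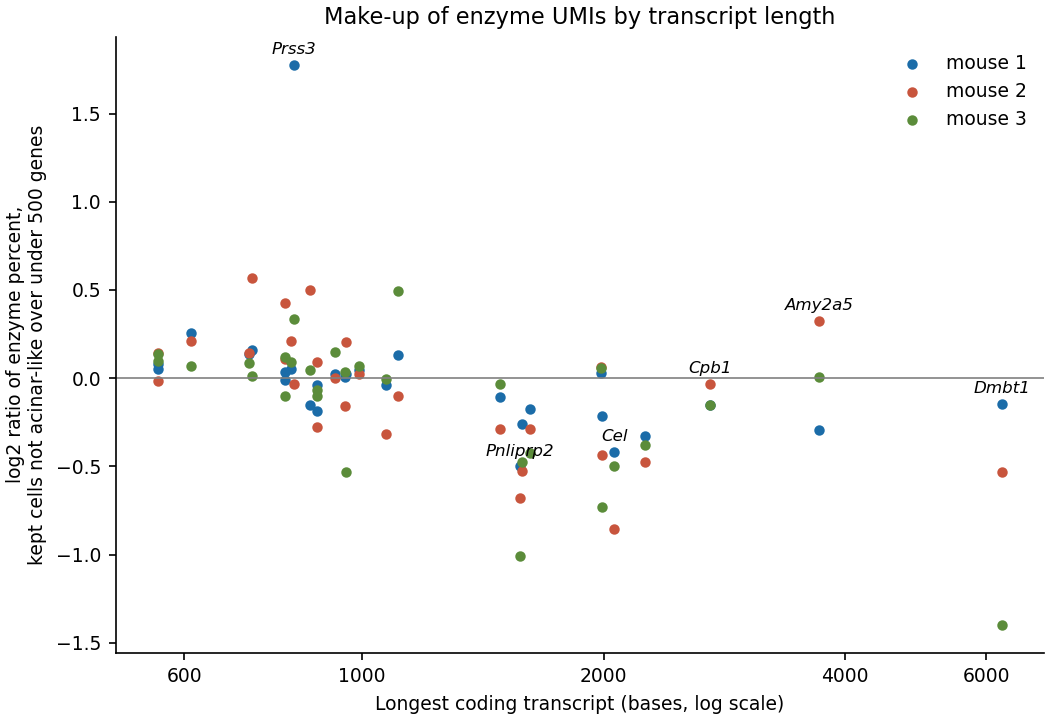
The log2 ratio of each enzyme gene's percent of enzyme UMIs in kept cells that are not acinar-like over that in barcodes with under 500 genes (y), against the length of its longest coding transcript (x, bases, log scale), with 1 point per gene and mouse. Long genes such as Pnliprp2 and Cel lie under 0 in all mice, while Cpb1 lies close under 0. Amy2a5 lies on both sides of 0, at -0.29, 0.33 and 0.005 in mice 1, 2 and 3.

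Barcodes with under 500 genes were of more than 1 kind. Their enzyme shares of UMIs were 5.65%, 28.5% and 6.89% when summed, yet the median barcode had 3.73%, 15.01% and 1.86%. In mouse 2 the upper quartile was 41.5%, and in mouse 3 the 95th percentile was 41.5% while the 90th was 5.72%. Above 25%, a line chosen after its values were seen, lay 73, 467 and 73 barcodes, which is 1.62%, 30.7% and 5.46% of the group. They held 21.1%, 74.0% and 73.1% of the group's enzyme UMIs, and 50, 82 and 0 barcodes lay between 20% and 30%.

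Below 25%, the median barcode had 56, 224 and 16 enzyme UMIs, close to the 73, 250 and 17 of kept cells that are not acinar-like. The make-up on either side of the line was alike, with Pearson's r of the log10 sums of 0.972, 0.982 and 0.955 over the enzyme genes. Fewer genes did not mean more enzyme in all mice. In mouse 2 the median share was 44.6% in barcodes with under 200 genes and 13.4% in those with 400 or more, and in mouse 1 it was 3.41% and 3.65%. Gm42418, a transcript that overlaps ribosomal RNA, gave 40.05% and 25.8% of UMIs in the same 2 bins of mouse 1 and 22.0% and 16.6% in mouse 2, and its part in these shares was not tested.

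**Figure D4:**
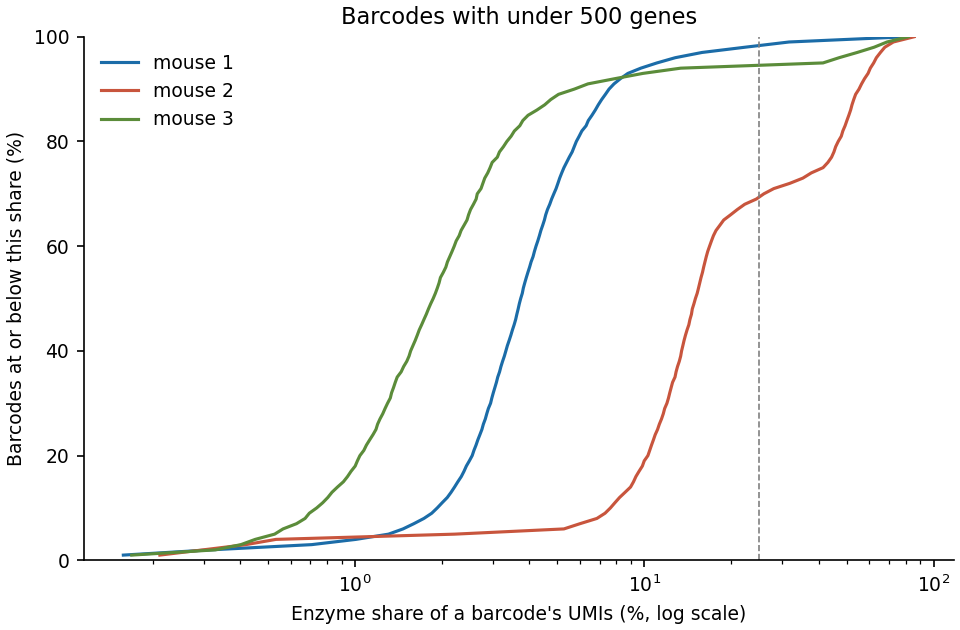
Cumulative percent of barcodes with under 500 genes (y) against the enzyme share of a barcode's UMIs (x, percent, log scale), 1 line per mouse, with a dashed line at 25%. The middle of the mouse 3 line lies furthest left (median 1.86%), and the mouse 2 line has a shoulder beyond 25% that holds 30.7% of its barcodes.

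Counted per cell, Cela1 was higher in delta-like cells than in 4 other classes. Delta cells are the somatostatin-producing cells of the islet, and their class had 10.0, 15.9 and 4.08 Cela1 UMIs per cell in mice 1, 2 and 3. Beta-like cells had 5.09, 12.5 and 1.37, alpha-like cells 5.82, 12.1 and 1.54, endothelial-like cells 8.04, 11.9 and 1.39 and macrophage-like cells 5.52, 10.7 and 1.55. Delta-like cells were the highest of these 5 classes in every mouse. Of the other classes, Schwann-like (11.7) and pericyte-like cells (10.3) were higher in mouse 1, and duct-like (56.8) and gamma-like cells (18.8) in mouse 2. In mouse 3, where enzyme UMIs per cell were fewest, Cela1 was 17.2% of delta-like enzyme UMIs and between 6.65% and 7.11% in the other 4 classes.

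This comparison was chosen after the values were seen. Per cell, against the mean of the 4 other classes, Cela1 was higher in delta-like cells by 0.96 on the log2 scale (SE 0.20, edgeR adjusted p = 1.48e-05), as the 1 enzyme gene of 29 that passed, where 21.5% of all genes were higher. Without mouse 3, 2 enzyme genes passed. Leaving out each mouse in turn kept Cela1 past the threshold with log2 differences of 0.61 to 1.13. With TMM scaling the difference was 0.96 (SE 0.41, edgeR adjusted p = 0.0767) and did not pass. The Cela1 number beyond what the other 28 enzyme genes would carry at the ratio found in endothelial-like and macrophage-like cells was 3.05, 2.27 and 2.59 UMIs per delta-like cell (2.64 ± 0.389, SD, n = 3). In beta-like cells it was 0.214, 0.231 and 0.0070, and in alpha-like cells 0.410, 0.606 and -0.101. In mouse 2, duct-like (6.38) and gamma-like cells (2.80) exceeded the delta-like value, while in mice 1 and 3 duct-like cells had 0.633 and 0.145 and gamma-like cells -0.244 and -0.0188.

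All 4 delta-like clusters shared the pattern in mouse 3, with Cela1 at 15.5% to 20.5% of enzyme UMIs. Gamma-like cells, with 20, 14 and 240 cells, had 4.90, 18.8 and 1.55 Cela1 UMIs per cell. Of the secreted acinar proteins outside the list, Reg1 and Tff2 did not pass in the per-cell comparison of delta-like cells, at 0.17 (SE 0.21) and -0.11 (SE 0.24). Not every such gene is reported here, so these values do not show that Cela1 was alone among acinar transcripts.

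**Figure D5:**
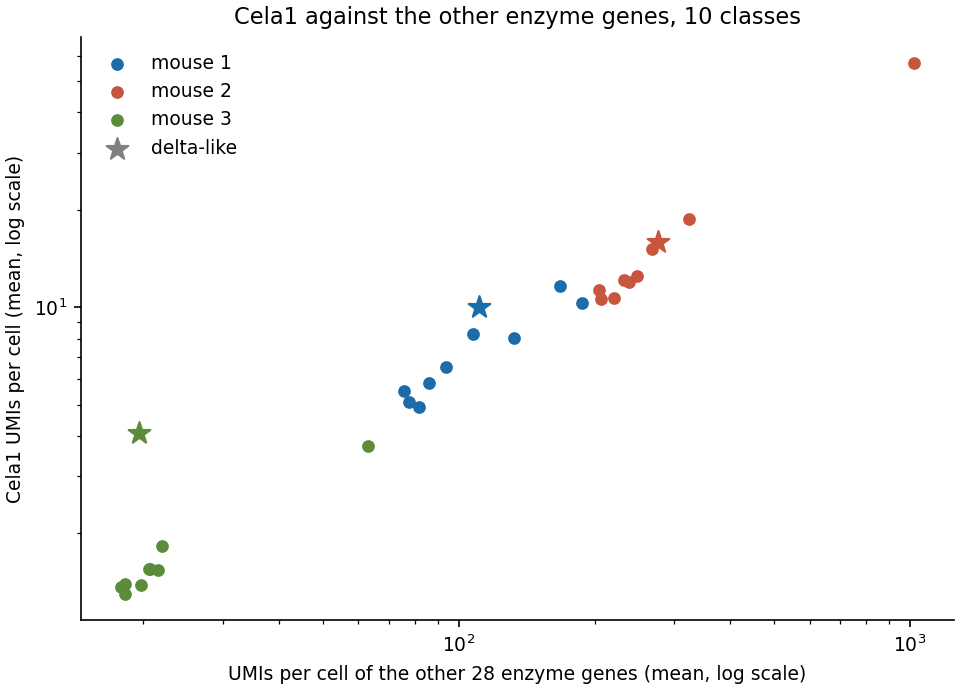
Mean Cela1 UMIs per cell (y, log scale) against the mean UMIs per cell of the other 28 enzyme genes (x, log scale) in 10 classes other than acinar-like, coloured by mouse, with delta-like cells as stars. Delta-like cells of mouse 3 (4.08 per cell) and mouse 1 (10.0 per cell) lie above the line formed by the other classes, and those of mouse 2 (15.9 per cell) lie close to it.

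Genes outside the list with the most similar pattern were sought over 33 sums of class and mouse, among 464 genes with a mean of at least 50 CPM in acinar-like cells. Among the 10 highest by Pearson's r of log2(CPM + 1) with the summed enzyme genes were Reg1 (0.997), 2210010C04Rik (0.996), Tff2 (0.990), Pdia2 (0.940), Serpini2 (0.915), Reg2 (0.899), Reg3d (0.862), 1810028F09Rik (0.834) and Nupr1 (0.802). The sums share libraries, depth and the RNA pool of their mouse, and Reg1, Pdia2 and Serpini2 were among the markers that formed the classes. At 33028 ± 5275 CPM (SD, n = 3), 2210010C04Rik was more abundant in acinar-like cells than Reg1, at 26697 ± 7406.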

How the data were processed

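The members and gene lists were chosen with earlier results of these data known. The deposited files hold raw UMI counts per gene and barcode, made by the authors with Cell Ranger 2.2 on mm10, per the submitters' processing notes, while the file headers name software version 3.1.0. How barcodes were selected before deposit is not given in the sources used here. Doublets were the highest Scrublet scores (scanpy 1.11.5), removed at 0.8% per 1000 barcodes (55, 96 and 166 cells). Clusters came from 136 markers of 18 cell types without the enzyme genes (20 components, 20 neighbours, Leiden resolution 1), and a cluster took a name when at least 3 markers of that type were among its 30 leading genes.

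Counts were summed per mouse and class and fitted with edgeR 4.0.16 (filterByExpr, TMM, quasi-likelihood test, false discovery rate 0.05) with the mouse as a block, and DESeq2 1.42.0 as an alternative. The classes of a mouse come from 1 animal, and deviations from class means over 2270 genes correlated at 0.128 to 0.748 within a mouse and at -0.633 to 0.132 between mice. Named genes were the 4 largest changes in each direction among enzyme genes past the threshold, the 5 largest and 5 smallest shares, and the 10 genes most alike, and other genes were named after their values were seen, as were the relation to transcript length and the split of classes into deep and shallow clusters. The scripts were tested on simulated data. Alternatives were other filters, scalings, clusterings and tests, and each mouse left out. Results of 1 gene outside the enzyme list are not reported here.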

Additional observations from a re-analysis of the deposited data

Results flagged for a closer look

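Barcodes with over 15% mitochondrial UMIs enter none of the comparisons above, and they carried enzyme UMIs in every mouse. The enzyme share of their UMIs was 4.15% in mouse 1, 11.7% in mouse 2 and 0.844% in mouse 3. Their median barcode held 93, 293 and 17 enzyme UMIs, beside 73, 250 and 17 in kept cells that are not acinar-like. The make-up correlated with that of acinar-like cells of the same mouse at a Pearson's r of 0.986, 0.989 and 0.975 over the enzyme genes. There is no control library for this signal, and it was noted because these barcodes were left out of the tests.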

How the results depend on the processing

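The 18 enzyme genes lower in endocrine classes as shares became 28 with the enzyme genes among the clustering genes, 28 with clusters from the 2000 most variable genes, 29 with no filter on low counts, 1 with cells thinned to 2000 UMIs, 2 to 26 with each mouse left out, 0 per cell and 0 with no replicate block, and leaving out the block changed none of the other 3 counts it was run for (duct-like shares and both ratio tests). The split of all genes also moved with scaling, from 4294 higher and 3256 lower with TMM to 2398 and 5250 with UMI totals and 8746 and 1261 per cell, where the median of all genes was 0.16, -0.42 and 1.27. The duct-like count of 0 also moved. It was 3 higher with no doublets removed, 4 higher with shared barcodes left out, 9 higher with no filter and 1 higher with UMI totals. Thinned cells gave 17 higher and the per-cell form 29 higher. In the other direction, 18 were lower with the enzyme genes among the clustering genes and 23 with the deep duct cluster alone. With cells of 3 or more acinar markers left out, 1 was lower. The variable genes gave 2 (1 higher, 1 lower). With each mouse left out the count was 3 higher (without mouse 1), 22 lower (without mouse 2) and 1 higher (without mouse 3). Per cell it was 0 to 29 with each mouse left out. The ratio test of other kept cells against acinar-like cells gave 1 gene, Prss3, with the deep acinar cluster alone, 1 with DESeq2 and 0 to 1 with each mouse left out. The enzyme share of acinar-like cells was 74.2% with at least 1000 genes, 73.8% with the variable genes, 73.9% with the deep cluster alone and 53.6% with barcodes over 100000 UMIs left out. The correlation with transcript length, here the mean of the single-mouse rhos, was -0.65 under the settings of the report, -0.58 with at least 250 genes and -0.54 with the deep acinar cluster alone. The Cela1 difference in delta-like cells was 0.96 with TMM scaling and then did not pass. The 4 genes named in the endocrine comparison were recomputed too. Their log2 differences kept direction and side of the threshold in 16 settings for Amy2a5, 12 for Cel, 15 for Pnliprp2 and 14 for Try4. They no longer passed in 3, 7, 4 and 5 settings, and 0 reversed. Shares of single genes in acinar-like cells have no test and no threshold, and of these 1 moved, that of Prss2. The causes were not tested. The ratio tests were not run with at least 1000 genes or with thinned cells. With 3 mice and standard errors over 1 in the ratio test, even differences of several fold in make-up could go undetected.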
